A study of Mus musculus with 18 samples.

Results

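Periaxin, Drp2 and the dystroglycan complex are represented here by 8 genes: Prx, Drp2, Dag1, Utrn, Dmd, Sgcb, Sgcd and Sgce. Members were taken as the probes whose accession on the array maps to 1 of these genes, which gave 14 probes of the 55681 on the array and 8 of the 20145 gene symbols that could be matched. Of the 14 probes, 12 passed the filter, which asks that all 6 arrays of 1 or more days be well above background, and every one of the 8 genes kept a probe. The material was dorsal root ganglion explants from C57BL/6J mouse embryos at E13.5, grown on matrigel for 12 days and then moved to myelination medium. Total RNA was measured on 18 single-colour Agilent arrays, 6 at day 0 (just before the medium change), 6 at day 10 (early myelination) and 6 at day 22 (abundant mature sheaths). Each day holds 3 batches of ganglia from separate pools of embryos, with 2 technical arrays per batch, per the series' design text (the sample titles number the batches as mice). All cultures came from the same strain, and none was kept without the medium, so the effects of culture age and of the medium cannot be told apart.

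Periaxin is a scaffold protein of myelinating Schwann cells that sits in the outermost, abaxonal membrane of the sheath. It binds Drp2, a short relative of dystrophin, and Drp2 binds dystroglycan, whose extracellular subunit holds laminin of the basal lamina. This assembly joins the outer membrane to the basal lamina at appositions that border the Cajal bands, the cytoplasmic channels of the internode. Loss of periaxin causes a recessive demyelinating neuropathy in humans and mice. In Schwann cells, dystroglycan also forms complexes with utrophin, with a short dystrophin isoform and with the sarcoglycans.

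Levels are log2 values of the intensity minus the array's 75th percentile, so 0 is the 75th percentile of the array and a difference of 1 is a doubling. They compare 1 probe across days, not different probes with each other. Differences are log2 differences, the later day minus the earlier, ± the standard error of a limma fit to 3 batch values per day, with Benjamini-Hochberg adjustment over all 22855 features tested. The authors' value table places 12 of the 18 arrays in another batch of the same day than the array files do. Each adjusted p is therefore given first for the array-file batches and then for the value-table batches. Standard errors and SDs are those of the array-file batches unless stated. The median SD of batch means over features was 0.126 with these and 0.150 with the value-table batches. Printed spreads can therefore be smaller than the value-table batches would give. The words rose and fell are kept for genes where both adjusted p are under 0.05. With both, 5.75% of features were higher and 7.72% lower at day 10 than at day 0, 0.49% higher and 1.45% lower at day 22 than at day 10, and 12.6% higher and 18.6% lower at day 22 than at day 0.

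The 75th percentile of the raw intensities lay between 584 and 747 on the 18 arrays, and 54.8% to 61.5% of spots were well above background. All 7 Schwann cell genes and all 14 peripheral myelin genes examined were measured on every array. Their mean log2 level over the list was 3.73 to 4.01, 3.70 to 4.29 and 2.64 to 3.90 for Schwann cell genes at days 0, 10 and 22, and 2.57 to 3.40, 4.19 to 4.67 and 3.19 to 4.56 for myelin genes. Of the myelin genes, 7 rose and 0 fell at day 22 relative to day 0, among them Ncmap by 5.06 ± 0.41. Of 7 Schwann cell genes, 0 rose and 2 fell, Erbb3 (-0.93 ± 0.17) and Ngfr (-0.92 ± 0.16). All 7 macrophage markers measured (of 8 listed) rose at day 22 against day 0, and their mean level was -1.76 to 0.14, 0.35 to 1.93 and 1.62 to 4.14 at days 0, 10 and 22. Of 12 neuronal markers 2 fell, among them Gap43 (-0.76 ± 0.20). Of 8 skeletal muscle markers, a tissue in which this complex is also abundant, only Acta1 was measured above background. Of the other markers measured, at day 22 against day 0, 1 perineurial marker of 6 fell, 1 endothelial marker of 5 rose and 1 fell, 1 pericyte or smooth muscle marker of 4 rose and 2 melanocyte markers of 4 rose. In bulk RNA, fewer cells of a type and less RNA per cell cannot be told apart.

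A pair of arrays stood apart from the rest of their day. The first technical array of batch 1 at day 22 had a mean Schwann cell level of 2.64, against 3.31 to 3.90 on the other 5, and a myelin level of 3.19, the lowest of its day. Its macrophage level was 4.14, against 1.62 to 3.79. Means of fibroblast (5.56), pericyte and smooth muscle (3.97) and perineurial markers (1.30) and the level of Acta1 (0.72) also lay above those of the other 5, and that of neuronal markers (3.60) lay below. The mean of the 8 genes was 1.89 on this array, and the next lowest of its day was 2.25. The value table pairs it with the second technical array of array-file batch 2. That partner was next in Schwann cell (3.31), macrophage (3.79), fibroblast (5.35), pericyte and smooth muscle (3.68) and perineurial markers (0.86) and Acta1 (-0.14). It was not next in neuronal (3.76) or myelin genes (4.07) or the 8 genes (2.44). Leaving out the array that stood apart leaves its batch with 1 array under either assignment. At day 0 the second technical array of batch 1 had a neuronal level of 3.69, against 4.36 to 4.69 on the other 5. It was above them in myelin genes, at 3.40 against 2.57 to 3.22, and in the mean of the 8 genes, at 2.27 against 1.90 to 1.97. The part of these shifts in the results was not tested. Results that rest on these arrays are given with and without them.

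Prx, which encodes periaxin, was higher at day 10. Its level ran from 6.41 to 7.07 (median 6.75) at day 0, from 7.28 to 7.66 (median 7.50) at day 10 and from 6.45 to 7.61 (median 7.30) at day 22. All 6 arrays of day 10 lay above all 6 of day 0, which held for 7.92% of features, whereas the arrays of day 22 overlapped both. Batch means averaged 6.75 ± 0.14, 7.51 ± 0.12 and 7.19 ± 0.36 at days 0, 10 and 22 (SD, n = 3 batches). Prx rose by 0.76 ± 0.17 at day 10 against day 0, a 1.69-fold difference (adjusted p = 0.0130 and 0.0455). This change ranked 1654 from the top of 22855 features. It passed in 9 of 9 fits that left out 1 array-file batch, but in 2 of 9 that left out 1 value-table batch, where the adjusted p reached 0.144.

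The difference in Prx at day 22 against day 10 was -0.32 ± 0.17 (adjusted p = 0.284 and 0.455). Over the whole period, day 22 minus day 0, it was 0.44 ± 0.17 (adjusted p = 0.0685 and 0.132). With the batch number as a block that difference had adjusted p = 0.0464 and 0.0554. The lowest day 22 value, 6.45, is from the array that was also lowest in Schwann cell genes. Without that array the day 22 minus day 0 difference was 0.56 for array-file batches and 0.54 for value-table batches (adjusted p = 0.00622 and 0.0314). Leaving out 1 batch with either assignment gave 0.26 to 0.67 (adjusted p = 0.00861 to 0.333), the lowest without array-file batch 3 of day 22 and the highest without value-table batch 1 of day 22. Slides 1 and 2 alone gave 0.02 and 0.61. On slide 1, day 22 holds only the arrays of array-file batch 1, among them the array lowest in Schwann cell genes. The part of Schwann cell and macrophage RNA in this array's Prx level was not tested.

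The promoter window of Prx is shown because Prx is the member with a window in RefSeq that rose. It covers 250 bases before and 50 after the annotated start on chr7:27499074-27499373 (+ strand, GRCm38.p6), and capitals mark matches to the motifs described next.
Prx: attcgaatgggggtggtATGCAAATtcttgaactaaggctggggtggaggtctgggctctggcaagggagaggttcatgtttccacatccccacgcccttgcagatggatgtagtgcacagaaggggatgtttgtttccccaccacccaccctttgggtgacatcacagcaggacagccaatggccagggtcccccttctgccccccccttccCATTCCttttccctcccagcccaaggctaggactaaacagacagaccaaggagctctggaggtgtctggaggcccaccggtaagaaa
The motifs searched, on both strands, were the octamer ATGCAAAT of POU-domain factors, ACAAAG of SOX factors, GTGGGCG of EGR factors, CATTCC of TEAD factors and the GC box GGGCGG. These letters were chosen with the sequences in view. The octamer began 233 bases before the start and occurs in 1.74% of 32851 windows of this length. CATTCC began 37 bases before it and occurs in 14.7% of windows. Letters for SOX, EGR and GC box motifs, present in 18.7%, 7.97% and 35.7% of windows, were not found in this one. A match describes the letters, not a bound site.

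Drp2, the dystrophin-related partner of periaxin, had the largest change of the 8 genes in each of the 3 comparisons. On the brighter of its 2 probes the level ran from -2.31 to -1.67 (median -1.78) at day 0, from -0.18 to 0.56 (median 0.35) at day 10 and from -0.04 to 1.99 (median 1.65) at day 22. All day 10 and day 22 arrays lay above all day 0 arrays (7.92% and 9.58% of features did so), and 5 of 6 day 22 arrays lay above all of day 10. Batch means were -1.84 ± 0.13, 0.26 ± 0.11 and 1.42 ± 0.64 (SD, n = 3 batches).

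Relative to day 0, Drp2 rose by 2.10 ± 0.27 at day 10, which is 4.29-fold (adjusted p = 0.00145 and 0.00583). At day 22 it was 3.27 ± 0.27 above day 0, which is 9.63-fold (adjusted p = 6.73e-05 and 0.000258). These changes ranked 256 and 273 from the top of 22855 features, and both passed in all 9 fits that left out 1 batch under either batch assignment. The 2 comparisons share the day 0 arrays. The difference at day 22 against day 10 was 1.17 ± 0.27 (adjusted p = 0.0349 and 0.0909), so it passed for the array-file batches alone. Without the day 22 array lowest in Schwann cell genes, where Drp2 was -0.04 against 1.40 to 1.99 on the other 5, the difference was 1.41 and 1.40 with the 2 batch assignments (adjusted p = 0.00146 and 0.00918).

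The dimmer Drp2 probe gave smaller differences in the same direction. Its level ran from -3.65 to -3.02 (median -3.19), from -2.44 to -1.77 (median -2.01) and from -2.29 to -0.54 (median -0.89) at days 0, 10 and 22. It rose by 1.20 ± 0.24 at day 10 and by 2.18 ± 0.24 at day 22 relative to day 0, and differed by 0.99 ± 0.24 between day 22 and day 10. Adjusted over all probes, p was 0.00726 and 0.0260 for the first, 0.000216 and 0.000912 for the second, and 0.0383 and 0.115 for the third. No promoter window of Drp2 or Sgce was given in the RefSeq table.

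**Figure D1:**
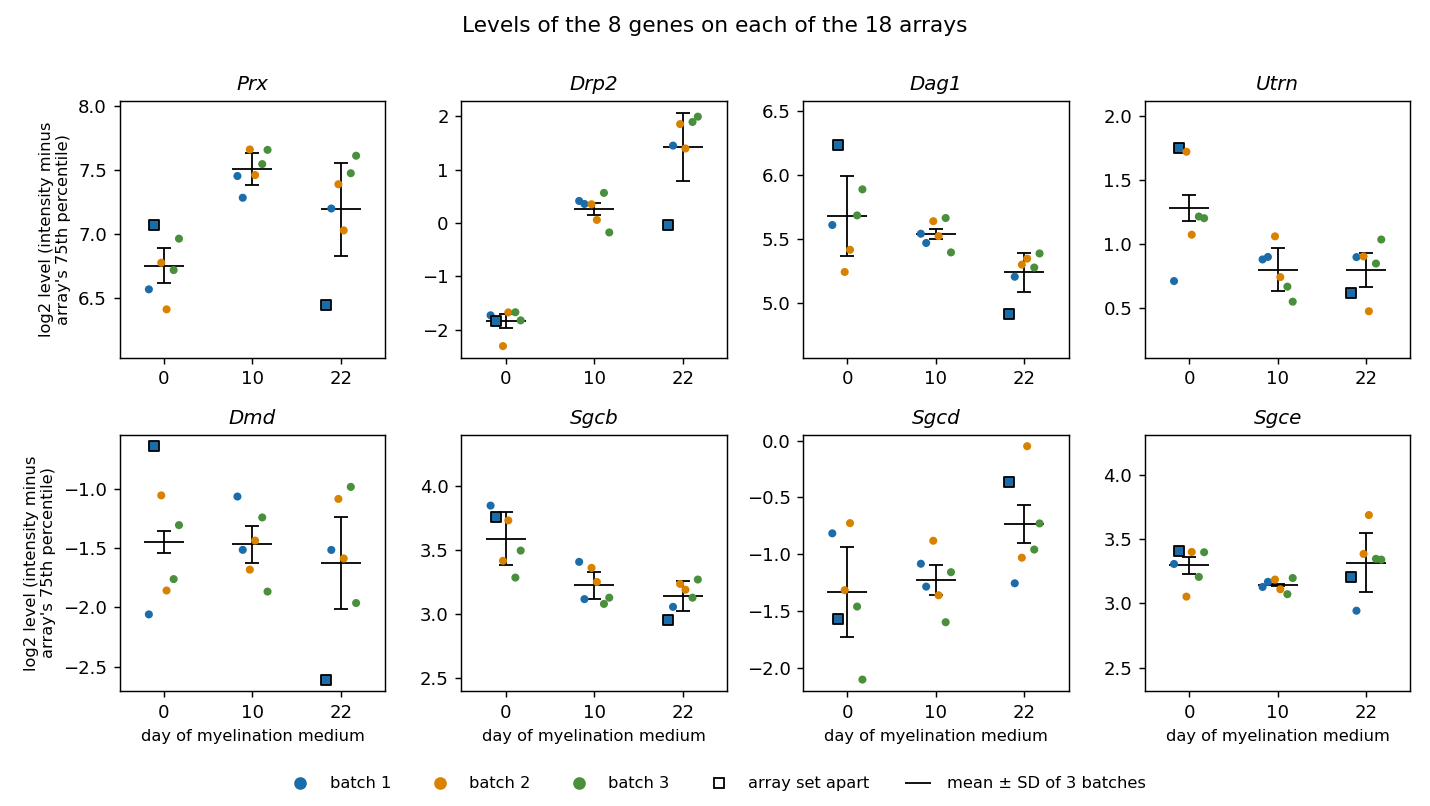
Log2 level (intensity minus the array's 75th percentile) of the 8 genes on each array, by day of myelination medium, from the brightest probe of each. Points are arrays coloured by batch, squares are the arrays that stood apart, and bars are the mean ± SD of 3 batches. Prx is highest at day 10 and Drp2 climbs at each step apart from 1 square at day 22, while Dag1 and Sgcb lie lower at day 22 than at day 0.

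On its brighter probe, Drp2 gained on Prx at each step. This ratio was examined after the levels had been seen, by subtracting the level of Prx on the same array from every feature and refitting all 22854. Scaled to a mean of 0 at day 0, Drp2 relative to Prx ran from -0.49 to 0.50 at day 0, from 0.76 to 1.67 at day 10 and from 2.11 to 3.06 at day 22. Each day's 6 arrays lay above all 6 of the day before, which held for 0.21% of features. Included among them is the array lowest in Schwann cell genes, at 2.11 against 2.85 to 3.06 on the other 5 of day 22. The step was 1.35 ± 0.20 at day 10 against day 0 (adjusted p = 0.000310 and 0.00233) and 1.48 ± 0.20 at day 22 against day 10 (adjusted p = 0.00253 and 0.0333). A rise relative to Prx that passed with both batch assignments was seen for 1.93% of features in the earlier step and for 0.398% in the later. The dimmer Drp2 probe was not part of this refit. Its own difference at day 10 against day 0 was 1.20, against 2.10 for the brighter probe and 0.76 for Prx. Set against Prx on the same arrays, its day 0 and day 10 levels overlapped, while its day 22 levels lay above both. The separation at the earlier step thus holds for the brighter probe only.

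None of the other 6 genes rose relative to Prx with both batch assignments in either step. At day 10 against day 0, Dag1 (-0.90 ± 0.19), Utrn (-1.24 ± 0.22), Sgcb (-1.12 ± 0.21), Sgce (-0.91 ± 0.19) and Dmd (-0.78 ± 0.21) fell relative to Prx with both batch assignments. So did 74% of all features, close to the share among the 7 other genes, so this count says nothing particular of the complex. Sgcd differed by -0.65 ± 0.27 (adjusted p = 0.0396 and 0.159). Between day 22 and day 10 none of these 6 passed under either assignment in limma, and Sgcd had the largest difference among them, 0.81 ± 0.27 (adjusted p = 0.101 and 0.339). Sgcd relative to Prx ran from -0.37 to 1.27 at day 22 and from -1.06 to -0.45 at day 10. All its day 22 arrays thus lay above those of day 10, as for 4.22% of features. At an unadjusted p under 0.05, 2 of the 6 passed for array-file batches and 0 for value-table batches, and the share of all features at that cutoff is not given here. These values carry the rise of Prx itself, since its level is subtracted from each.

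**Figure D2:**
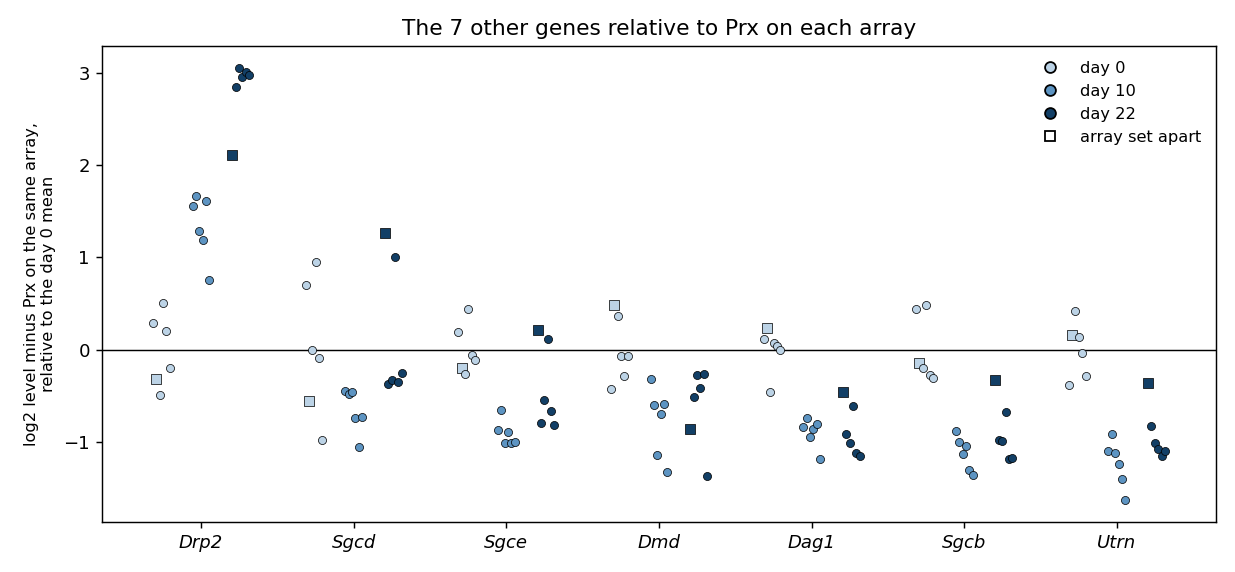
Log2 level of each of the 7 other genes minus that of Prx on the same array, relative to the mean of day 0. Each point is 1 array, shading is the day and squares are the arrays that stood apart. Drp2, on its brighter probe, separates into 3 levels, with day 22 between 2.11 and 3.06, while the remaining genes lie mostly below 0 at day 10.

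Dag1, which encodes both dystroglycan subunits, was lower at day 22. Its level ran from 5.25 to 6.23 (median 5.65) at day 0, from 5.40 to 5.67 (median 5.53) at day 10 and from 4.92 to 5.39 (median 5.29) at day 22. Day 22 arrays all lay below those of day 10, as for 5.49% of features, while both days overlapped day 0. Dag1 fell by 0.44 ± 0.15 at day 22 against day 0, to 0.737 of its day 0 level (adjusted p = 0.0440 and 0.0311). The differences of each single step were -0.14 ± 0.15 at day 10 against day 0 (adjusted p = 0.535 and 0.487) and -0.30 ± 0.15 at day 22 against day 10 (adjusted p = 0.250 and 0.261).

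The fall of Dag1 was close to the threshold. With the batch number as a block the adjusted p was 0.0648 for array-file batches and 0.0332 for value-table batches. Its highest value, 6.23, is from the day 0 array lowest in neuronal genes, and without that array the difference was -0.34 and -0.35 (adjusted p = 0.0727 and 0.0181). Without the day 22 array lowest in Schwann cell genes, which had the lowest Dag1 level, it was -0.39 and -0.37 (adjusted p = 0.0512 and 0.0477). Of the fits that left out 1 batch, 1 of 9 passed with the array files and 4 of 9 with the value table.

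Sgcb, the beta subunit of the transmembrane sarcoglycan complex, was also lower at day 22. On its brightest probe the level ran from 3.28 to 3.84 (median 3.61) at day 0, from 3.08 to 3.41 (median 3.19) at day 10 and from 2.95 to 3.27 (median 3.16) at day 22. No array of day 22 reached the lowest of day 0, as for 13.3% of features. Sgcb fell by 0.45 ± 0.12 at day 22 against day 0, to 0.732 of its day 0 level (adjusted p = 0.0156 and 0.0204). At day 10 against day 0 the difference was -0.36 ± 0.12 (adjusted p = 0.0506 and 0.0719), and at day 22 against day 10 it was -0.09 ± 0.12. The other 2 Sgcb probes differed by -0.25 and -0.22 at day 22 against day 0 and did not pass (adjusted p over all probes 0.0766 and 0.0505 for one, 0.154 and 0.138 for the other). Without the day 0 array lowest in neuronal genes the difference of the brightest probe was -0.46 and -0.37 (adjusted p = 0.0221 and 0.0716).

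Promoter windows of Dag1 and Sgcb, the members that fell, are shown for comparison with that of Prx. Dag1 lies on chr9:108263766-108264065 and Sgcb on chr5:73647688-73647987, both on the - strand of GRCm38.p6 with 250 bases before and 50 after the start. Capitals mark matches to the same motifs. RefSeq holds a further Dag1 window that overlaps this one.
Dag1: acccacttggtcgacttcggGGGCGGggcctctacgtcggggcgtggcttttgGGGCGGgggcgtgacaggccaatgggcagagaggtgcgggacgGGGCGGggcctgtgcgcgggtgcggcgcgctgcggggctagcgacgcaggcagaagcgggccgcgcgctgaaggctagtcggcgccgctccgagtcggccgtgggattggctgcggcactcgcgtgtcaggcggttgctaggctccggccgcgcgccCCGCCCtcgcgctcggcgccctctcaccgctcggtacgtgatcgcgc
Sgcb: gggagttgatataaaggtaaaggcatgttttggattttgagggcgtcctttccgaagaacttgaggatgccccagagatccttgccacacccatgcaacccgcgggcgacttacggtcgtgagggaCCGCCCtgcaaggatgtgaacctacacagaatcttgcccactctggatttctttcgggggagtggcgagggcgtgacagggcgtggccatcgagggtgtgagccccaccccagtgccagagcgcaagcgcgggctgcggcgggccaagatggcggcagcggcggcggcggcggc
The GC box was found at 4 places in the Dag1 window and at 1 in the Sgcb window, while the letters of the octamer, SOX, EGR and TEAD motifs were found in neither. Among windows not shown, that of Sgcd, which did not pass under both assignments, held CATTCC 133 bases before its start and 1 GC box. The Utrn window and the Dmd window at chrX:82948620-82948919 held no GC box, like that of Prx. Whether the motifs go with direction was not tested. G and C made up 75.3% of the Dag1 window and 62.7% of the Sgcb window, against 56.7% of the Prx window.

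Utrn, whose product utrophin is the full-length dystrophin relative that binds dystroglycan, differed only under 1 batch assignment. Its level ran from 0.71 to 1.75 (median 1.21) at day 0, from 0.55 to 1.06 (median 0.81) at day 10 and from 0.48 to 1.03 (median 0.87) at day 22. The lowest day 0 array, 0.71, lay within the range of the later days. The difference was -0.48 ± 0.11 at day 10 against day 0 (adjusted p = 0.0136 and 0.104) and -0.48 ± 0.11 at day 22 against day 0 (adjusted p = 0.00808 and 0.0669). With the batch number as a block the latter had adjusted p = 0.0178 and 0.0380. The highest Utrn value, 1.75, is again from the day 0 array lowest in neuronal genes. Without it the differences were -0.30 and -0.31 for array-file batches (adjusted p = 0.273 and 0.209 at days 10 and 22). Between day 22 and day 10 the difference was 0.00 ± 0.11.

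Dmd, the dystrophin gene, had 3 probes of which 1 was kept. On that probe the level ran from -2.06 to -0.64 (median -1.53) at day 0, from -1.87 to -1.06 (median -1.48) at day 10 and from -2.61 to -0.98 (median -1.55) at day 22. The days overlapped, and the differences were -0.02 ± 0.18, -0.16 ± 0.18 and -0.18 ± 0.18 for day 10 against day 0, day 22 against day 10 and day 22 against day 0. The highest and the lowest of its 18 values, -0.64 and -2.61, are from the arrays that stood apart. Of the other 2 probes, one was well above background on 1, 1 and 3 of 6 arrays at days 0, 10 and 22, and the other on 5, 3 and 2. Dystrophin transcripts share a gene but start at different promoters, and which of them each probe reads is not given in the sources used here.

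Sgcd, the delta-sarcoglycan gene, was highest at day 22 without passing under both assignments. On the brighter of its 2 probes the level ran from -2.11 to -0.73 (median -1.39), from -1.60 to -0.88 (median -1.22) and from -1.26 to -0.05 (median -0.84) at days 0, 10 and 22, and all days overlapped. The difference was 0.60 ± 0.19 at day 22 against day 0 (adjusted p = 0.0327 and 0.152), 0.10 ± 0.19 at day 10 against day 0 and 0.50 ± 0.19 at day 22 against day 10 (adjusted p = 0.142 and 0.418). Its other probe differed by 0.75 ± 0.17 at day 22 against day 0 (adjusted p over all probes 0.00931 and 0.0723). Without the day 22 array lowest in Schwann cell genes, at -0.37 the next to highest, the difference of the brighter probe was 0.45 and 0.65 (adjusted p = 0.145 and 0.146).

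Sgce, the epsilon-sarcoglycan that takes the place of the muscle alpha subunit in Schwann cells, passed in no comparison. Its level ran from 3.05 to 3.41 (median 3.35) at day 0, from 3.07 to 3.20 (median 3.15) at day 10 and from 2.94 to 3.69 (median 3.34) at day 22. The days overlapped, and the differences were -0.15 ± 0.11, 0.17 ± 0.11 and 0.02 ± 0.11 for day 10 against day 0, day 22 against day 10 and day 22 against day 0. The limma fit called none of them under either assignment.

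By count, 2 of the 8 genes were higher and 0 lower at day 10 than at day 0, where 5.75% and 7.72% of all features passed. At day 22 against day 10, 0 of 8 passed in the limma fit with both assignments (Drp2 was higher with the array files alone, as were 4.2% of features), where 0.49% of features were higher and 1.45% lower with both. At an unadjusted p under 0.05, 1 of the 8 passed with both, a count that has no share of all features beside it and is not read further. For day 22 against day 0, 1 was higher and 2 were lower, where 12.6% and 18.6% of features passed. The median difference of the 8 genes was -0.08, -0.04 and -0.08 in these comparisons, and that of all features was -0.06, -0.02 and -0.08. Differences between batches within a day did not pass limma's F test for any of the 8 genes, and the smallest adjusted p was 0.0538, for Sgcd and value-table batches.

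**Figure D3:**
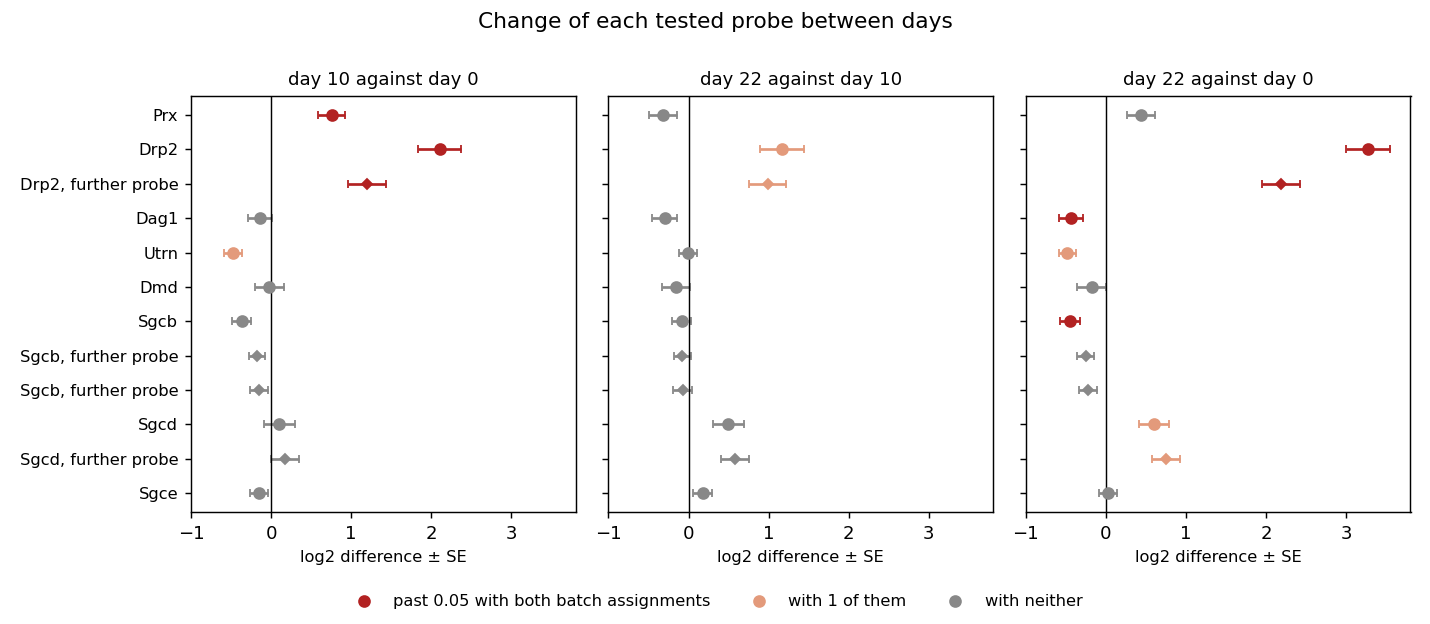
Log2 difference ± standard error (3 batches per day) of the 12 tested probes in the 3 comparisons, later day minus earlier day. Circles are the brightest probe of a gene and diamonds its further probes, and colour gives the batch assignments under which the adjusted p was under 0.05. Drp2 stands out to the right in every panel, at 3.27 for day 22 against day 0, and Dag1 and Sgcb are the members to the left of 0 that passed with both.

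Other genes of the dystrophin-glycoprotein complex were followed in a list of 11, of which 10 were measured and Sgca, the muscle alpha-sarcoglycan, did not pass the filter. At day 22 against day 0, 1 rose and 3 fell, where 12.6% and 18.6% of all features did. The median difference was 0.01 against -0.08 for all features. The syntrophins are adaptor proteins that bind dystrophin relatives. The gene counted as higher was Sntg1, at -3.32 ± 0.66 at day 22 and -5.60 ± 0.12 at day 0 (SD, n = 3 batches), where 3 of 6 arrays were well above background. Its difference was 2.28 ± 0.29 (adjusted p = 0.000456 and 0.00465), but the filter kept it through a day at which it was high, and part of its day 0 level lies near background, so the size is uncertain and the count of 1 is no support for a rise. Sntb1 fell by 0.73 ± 0.14 (adjusted p = 0.00370 and 0.00500). Sntb1 was also the only one of the 10 to pass with both assignments at day 10 against day 0, where it fell by 0.62 ± 0.14 (adjusted p = 0.0132 and 0.0228).

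Sgcz, which encodes zeta-sarcoglycan, averaged -4.20 ± 0.65 at day 22 and -3.11 ± 0.51 at day 0 (SD, n = 3 batches), a fall of 1.09 ± 0.36 (adjusted p = 0.0375 and 0.0316). Sntg2 (0.64 ± 0.19) and the sarcospan gene Sspn (0.44 ± 0.11) passed for the array-file batches alone. Differences of the syntrophin Sntb2 (-0.19 ± 0.10) and of the dystrobrevins Dtna (0.32 ± 0.20) and Dtnb (0.00 ± 0.26) did not pass. At day 22 against day 10 none of the 10 passed with both assignments in limma, and 4 had an unadjusted p under 0.05 with both. The share of all features at that cutoff is not given here, so this count is no sign of a change in the complex.

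Dystroglycan binds laminin through a sugar chain that a set of enzymes builds on its extracellular subunit. Of 17 such enzymes, all measured, 2 rose and 2 fell at day 22 against day 0, where 12.6% and 18.6% of all features did. None passed with both assignments in the other comparisons of the limma fit. In each of those, 2 had an unadjusted p under 0.05 with both, again without a share of all features to set beside it. B3galnt2, which adds a sugar of the core chain, rose by 0.56 ± 0.12 (adjusted p = 0.00543 and 0.0127), and Dpm3, a subunit of the mannose donor synthase, rose by 0.31 ± 0.08 (adjusted p = 0.0176 and 0.0186). The median of the 17 was -0.08, as was that of all features.

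Basal lamina ligands of dystroglycan were 9 in number. At day 22 against day 0, 2 of them rose and 6 fell, where 12.6% and 18.6% of all features did. Their median was -0.96, against -0.08 for all features. The fallen laminin chains included Lama2 (-1.52 ± 0.10), the alpha chain of the main laminin of peripheral nerve basal lamina, Lama4 (-1.65 ± 0.10) and the gamma chain Lamc1 (-1.54 ± 0.10). Lama1, an alpha chain typical of embryonic basement membranes, rose by 2.22 ± 0.25 (adjusted p = 0.000263 and 0.00254), and the other riser was Lama5 (0.98 ± 0.14), named after its value was seen. At day 10 against day 0, 1 ligand rose and 5 fell, where 5.75% and 7.72% of all features did. At day 22 against day 10, 0 rose and 3 fell, where 0.49% and 1.45% of all features did. Fibroblast and macrophage markers measured on the same arrays moved as well: 1 of 7 fibroblast markers measured rose and 2 fell at day 22 against day 0, and their part in the laminin values was not tested.

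Other laminin receptors of Schwann cells and the periaxin relative Ahnak made a list of 8, of which 7 were measured and Ahnak2 had no probe. At day 22 against day 0, 1 rose and 2 fell, where 12.6% and 18.6% of all features did. The median of the list was -0.01, against -0.08 for all features. Counts of this size among 7 genes are not read as a result about the list. Integrin alpha 6, encoded by Itga6, is a laminin receptor subunit and fell by 0.86 ± 0.13 (adjusted p = 0.00100 and 0.00593). Itgb1, the beta 1 integrin, fell by 0.41 ± 0.08 at day 10 against day 0 (adjusted p = 0.00646 and 0.0347). The tetraspanin gene Cd151, whose product associates with laminin-binding integrins, rose by 0.48 ± 0.11 at day 22 against day 0 (adjusted p = 0.00720 and 0.0145).

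**Figure D4:**
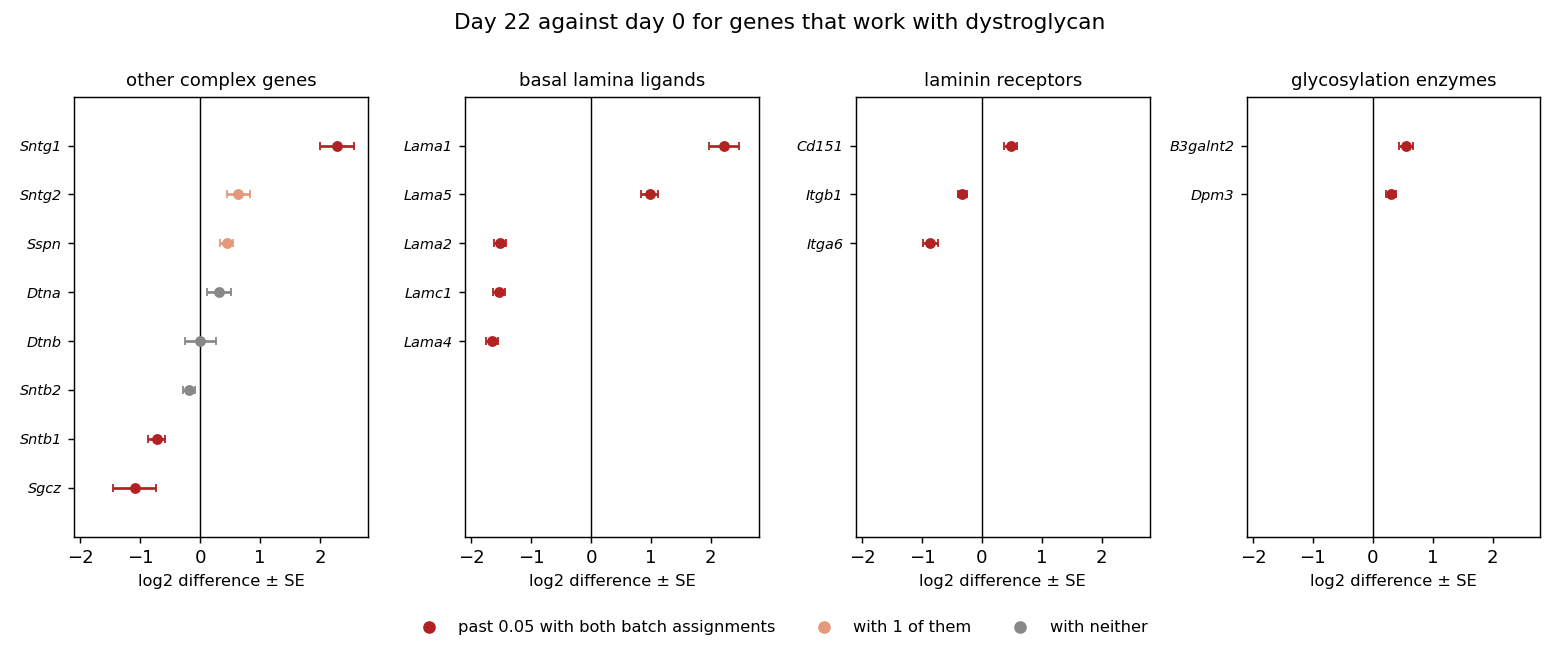
Log2 difference ± standard error at day 22 against day 0 (3 batches per day) for the genes named in the text from the 4 lists of genes that act with dystroglycan. Colour gives the batch assignments under which the adjusted p was under 0.05. Ligands spread widest, between -1.65 for Lama4 and 2.22 for Lama1, while the 2 glycosylation enzymes shown lie at 0.56 and 0.31.

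The features whose level over the 18 arrays was most like that of each member were listed by Pearson's r, a description without a test, since the arrays fall into 3 days and share batches. For Prx they were Dzip1 (r = 0.97), Tsc22d4 (0.96), Npepl1 (0.96), Cep83 (0.95) and Bcas1 (0.95). For Drp2 they were Lactb2 (0.97), Il16 (0.97), Crybb3 (0.96), Wdyhv1 (0.96) and Pdzph1 (0.96). The highest were lower for the remaining members: Epb41l2 for Dag1 (0.93), Urb2 for Utrn (0.93), Zfp692 for Dmd (0.92), Osbpl5 for Sgcb (0.91), Tns1 for Sgcd (0.87) and Cxcl10 for Sgce (0.84). After these came Fcsk and H3c3 for Dag1, Rbm26 and Prm2 for Utrn, Arfgap2 and Zfp280c for Dmd, Tmem18 and Cdc23 for Sgcb, Elmod1 and Naaa for Sgcd, and Odr4 and Mff for Sgce. Prx and Drp2 had r = 0.64 with each other over the same arrays, and the next highest with Drp2 was Sgcd at 0.40. With Drp2, r was negative for Sgcb (-0.66), Utrn (-0.56) and Dag1 (-0.46), and it was 0.006 for Dmd and 0.045 for Sgce.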

How the data were processed

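Each of 18 samples was hybridised to 1 Cy3 array. The authors read spot intensity with Agilent Feature Extraction 10.7.1.1, per the file headers (10.7.1 in the submitters' processing notes), on a design of build mm9. The processed signal was used, an intensity already background-subtracted per the file headers. Control spots (3671 of 62976) and outlier spots (93 to 181 per array) were left out and spots of a probe were averaged. The log2 intensity minus the array's 75th percentile was taken, and probes were kept where all 6 arrays of 1 or more days were well above background (30432 of 55681). Array precision is limited by the number of batches. The brightest probe stood for a gene (22855 features, 14543 with a symbol), and 26582 probes were named through RefSeq of GRCm38.p6. No spot was saturated (0 on any array).

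The authors' deposited value table holds the same arrays as an intensity scale with an equal median, 33.7, in each column; how it was centred is not given in the sources used here. Matched to the array files, 6 of 18 columns fell on their own file and 12 on another of the same day, none (0) on another day. Batch means of a day had a median SD of 0.126 for array-file batches and 0.150 for value-table batches. The 2 arrays of a batch had a median SD of 0.135 and 0.116 with these assignments. An SD of means of 2 arrays and an SD of single arrays are unlike quantities and are not set against each other. Compared with the array-file assignment, value-table batch means differed more and the arrays within a batch differed less. Printed spreads can change with the assignment. At day 0 the SD of batch means was 0.102 and 0.335 for Utrn, and 0.310 and 0.244 for Dag1.

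The 2 technical arrays were averaged and limma 3.58.1 (R 4.3.3, with version 1.17.8 of data.table) was fitted to the 9 batch values, with days as groups and p-values adjusted by Benjamini-Hochberg. P-values measure the spread between batches. Batches from different pools of embryos are described in the series' design text, while sample titles number them as mice; whether a number is the same pool on all days is not spelled out. Deviations from day means of equal numbers correlated at -0.13 to 0.37 (6 of 9 above 0.1) with the array files and at -0.08 to 0.46 (8 of 9) with the value table. The fit was tested on simulated data of 22855 features for day 10 against day 0, where it recovered 46.3%, 76.1% and 92.4% of 1.5-, 2- and 4-fold changes. Members and lists were chosen with earlier results of these data known. Genes of lists were named by size (the 4 largest changes per list past the threshold) and, for other complex genes, in full, except that some genes of the lists are counted but not reported singly here. The mean signal column was not present, so the normexp alternative used the median signal. Promoter windows come from RefSeq (GRCm38.p6), which matched 6 of 8 members. Summaries and plots used Python 3.11.15, numpy 2.4.6, pandas 2.3.3 and matplotlib 3.10.9. Alternatives are given in the closing section.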

Additional observations from a re-analysis of the deposited data

Results flagged for a closer look

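In 81 groups of 6 arrays (36 of them probes of the 8 genes by day), 6 held an array whose distance to its nearest neighbour was over Dixon's 95% critical share of the group's range, a rule by which chance flags about 1 group in 20. The brighter Drp2 probe had its lowest day 22 value, -0.035, on the first technical array of batch 1, and the other 5 arrays lay between 1.40 and 1.99. The same array was lowest for Drp2 relative to Prx, at 2.11 against 2.85 to 3.06. Its mean Schwann cell level, though the lowest of day 22, was not flagged by this rule. At day 0 the brighter Drp2 probe was lowest on the first technical array of batch 2, at -2.31 against -1.84 to -1.67.

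The mean level of the neuronal list was lowest at day 0 on the second technical array of batch 1, at 3.69 against 4.36 to 4.69 on the other 5. That of the Schwann cell list was lowest at day 0 on the first technical array of batch 3, at 3.73 against 3.96 to 4.01. For pericyte and smooth muscle markers the mean was highest at day 10 on the second technical array of batch 2, at 3.16 against 2.40 to 2.59. What sets these arrays apart was not tested.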

How the results depend on the processing

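The rises of Drp2 at day 10 and at day 22 against day 0 kept their direction and passed in all 35 alternatives run for each, with differences of 1.65 to 2.35 and 2.67 to 3.64. Prx at day 10 against day 0 kept its direction in 35 of 35 and did not pass in 11, Dag1 at day 22 against day 0 kept it in 35 and did not pass in 22, and Sgcb kept it in 35 and did not pass in 4. Array number and the 3 batches per day limit all of these. The main counts of features past the threshold were 6683 for day 10 against day 0 (2605 higher, 4078 lower), 2201 for day 22 against day 10 (960 and 1241) and 10156 for day 22 against day 0 (3910 and 6246), with 3, 1 and 5 of the 8 genes, all for array-file batches. For value-table batches the feature counts were 3161, 458 and 7367, with 0 genes at day 22 against day 10 (1 at main) and 3 at day 22 against day 0. With the replicate block and value-table batches the first 2 feature counts were 3732 and 716, and 0 genes passed at day 22 against day 10. Beyond the values printed in the report for Prx, Dag1 and Utrn, the block changed no other call of the 8 genes under the same batches. The authors' values in their own batches gave 3105 (1530 higher, 1575 lower), 431 and 7436, with 0 genes at day 22 against day 10 and 3 at day 22 against day 0. Without a filter on dim probes 1152 features and 0 genes passed at day 22 against day 10, and 3 genes at day 22 against day 0.

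First technical arrays alone gave 855, 87 and 4425 features and 1, 0 and 1 genes in the 3 comparisons, and second technical arrays alone 3218, 277 and 6275 features, with 2 genes at day 22 against day 0. Slide 1 alone gave 1149, 476 and 4527 features and slide 2 alone 1222, 46 and 4539, each with 1, 0 and 2 genes; on slides 1 and 2 alone Prx differed by 0.66 and 0.86 at day 10 against day 0, and Drp2 by 0.33 and 1.57 at day 22 against day 10. Fits of single slides took arrays, not batches, as replicates. Day 22 on slide 1 held only arrays of array-file batch 1, among them the array lowest in Schwann cell genes. The slides are thus not separate replications. With the slide as a block 5077 features passed at day 22 against day 10. Scaling to the array's median gave 3362 higher and 2761 lower at day 10 against day 0, and 741 and 1938 at day 22 against day 10. Chosen after seeing the data, leaving out the day 22 array lowest in Schwann cell genes gave 3535 and 569 features in the first 2 comparisons for value-table batches. Leaving out the day 0 array lowest in neuronal genes gave 4275 at day 10 against day 0 and 3 genes at day 22 against day 0, and, for value-table batches, 2927 and 624 features in the first 2 comparisons, with 0 genes at day 22 against day 10 and 2 at day 22 against day 0. Leaving out 1 batch at a time, with either assignment, gave 773 to 7568, 8 to 3495 and 5033 to 9917 features and 1 to 4, 0 to 1 and 1 to 5 genes.

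Only differences that had not passed turned their sign. At day 10 against day 0, Dmd was 0.057 with median scaling, 0.0037 with normexp and quantile, 0.014 with the authors' values, 0.30 on first technical arrays, 0.067 on slide 2 and 0.22 and 0.17 without the day 0 array (both assignments), Dag1 was 0.10 on first technical arrays and Sgcd -0.022 without the day 0 array. At day 22 against day 10, Utrn was 0.072 on second technical arrays, 0.089 on slide 2 and 0.043 without the day 22 array, Dmd 0.30 on slide 2 and 0.026 and 0.014 without the day 22 array, Sgcb 0.0068 and 0.032 on second technical arrays and slide 2, and Sgce -0.086 on slide 1. At day 22 against day 0, Dmd was 0.066 on first technical arrays, 0.36 on slide 2, 0.0049 without the day 22 array and 0.059 and 0.0095 without the day 0 array, and Sgce was -0.079 on second technical arrays, -0.18 on slide 1, -0.0031 with the slide as a block and -0.021 without the day 22 array. Leaving out 1 batch gave ranges of -0.28 to 0.13, -0.34 to 0.081 and -0.43 to 0.060 for Dmd in the 3 comparisons, -0.12 to 0.39 for Sgcd at day 10 against day 0, -0.099 to 0.12 for Utrn at day 22 against day 10 and -0.087 to 0.14 for Sgce at day 22 against day 0. The cause of these shifts was not tested.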
